A study of Mus musculus with 2 samples.

Results

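miR-21a-5p, miR-221-3p, miR-222-3p, miR-31-5p, miR-146a-5p and miR-155-5p, 6 miRNAs known for their part in the growth of vascular smooth muscle, were measured on miRNA arrays of cultured pulmonary arterial smooth muscle cells. They were chosen by their miRBase mature-sequence accessions and make up 6 of the 739 features in the deposited table. Each had 1 feature, with a value on both arrays. The study comprised 2 samples from male mice of the C57BL/6 background, 1 wild-type and 1 NOX1-deficient, NOX1 being one of the NADPH oxidase enzymes that make superoxide. Each sample is described as coming from 3 mice, and the labels do not say whether cells or RNA were pooled. Cells of both genotypes were at passage 3 and spent 24 hours in DMEM/F-12, a growth medium, containing 10% serum, so both were measured in serum. The labels do not describe the NOX1-deficient allele or the cells in which it acts.

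A miRNA is a short RNA cut from a hairpin precursor, and it lowers the output of mRNAs that pair with its seed, bases 2 to 8 from its 5′ end. In smooth muscle, miR-21 is known to repress the growth inhibitor PDCD4, and miR-221 and miR-222 to repress the cell cycle inhibitor Cdkn1b. In cultured rat vascular smooth muscle, miR-31 has been described to repress the kinase LATS2 and miR-146a the transcription factor KLF4. Both miR-146a and miR-155 are best known from inflammation, where they are induced by NF-κB signalling and are prominent in blood cells.

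The mature sequences of all 6 were found in RefSeq (mouse build GRCm38.p6) and are shown because the seed decides which of them can share targets. They are written 5′ to 3′ with the seed in capitals.

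miR-21a-5p: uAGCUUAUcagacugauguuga
miR-221-3p: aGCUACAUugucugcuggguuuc
miR-222-3p: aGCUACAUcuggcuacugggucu
miR-31-5p: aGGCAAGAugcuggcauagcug
miR-146a-5p: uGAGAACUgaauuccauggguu
miR-155-5p: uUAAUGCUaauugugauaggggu

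The 6 sequences carry 5 different seeds, and miR-221-3p and miR-222-3p are the pair with a seed in common. Position by position, counted from 1 at the 5′ end, these 2 have the same base at 11 of 23 positions, and all 12 differences lie after the seed. Other mature miRNAs in RefSeq also carry a seed found here. miR-146b-5p has that of miR-146a-5p and matches it at 20 of 22 positions, with the differences G18A and U21C. miR-21c has that of miR-21a-5p and matches it at 16 of 21 positions. miR-1928, a sequence of 17 bases, has that of miR-221-3p and miR-222-3p and matches the first at 14 and the second at 8 positions. Whether the array's probes separate these close relatives was not tested.

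miR-146b-5p: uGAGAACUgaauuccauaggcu
miR-21c: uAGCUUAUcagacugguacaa

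The mature miR-21a-5p lies at chr11:86584120-86584141 on the minus strand, inside the span of the protein-coding gene Vmp1. That of miR-146a-5p lies on the same chromosome, at chr11:43374435-43374456 on the minus strand, with no other gene of the RefSeq table spanning its hairpin. The mature miR-155-5p lies at chr16:84714143-84714165 on the plus strand, inside the span of its noncoding host gene Mir155hg. The mature miR-31-5p lies at chr4:88910614-88910635 on the minus strand, inside the span of the long noncoding RNA gene Gm49890. Exons were not given in that table, so whether these positions are exonic or intronic was not determined. The hairpins of miR-221-3p and miR-222-3p lie on the X chromosome on the minus strand, at chrX:19146294-19146388 and chrX:19146893-19146971, with 504 bases between them. They are shown with the mature miRNA in capitals, since this neighbouring pair gave values in opposite directions below.

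Mir221: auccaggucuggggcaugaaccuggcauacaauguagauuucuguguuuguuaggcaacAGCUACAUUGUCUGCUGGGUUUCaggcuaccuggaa
Mir222: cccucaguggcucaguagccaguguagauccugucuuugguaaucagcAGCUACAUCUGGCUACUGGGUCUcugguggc

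The deposited values are array intensities on a linear scale in arbitrary units, and 472 features had a value on both arrays. The lowest listed intensities were 0.96 units on the wild-type array and 0.93 units on the NOX1-deficient array, and the summed intensities were 114672 and 112103 units. With 1 array per genotype no test was possible, so each difference below is a description of these 2 arrays with no replicate error. The features other than these 6 carry accessions that no table used here pairs with names, so neither the smooth muscle label nor the presence of blood or endothelial cells was checked against marker miRNAs. Less of a miRNA per cell and fewer cells that make it cannot be told apart in such samples.

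The comparison asks whether growth-associated miRNAs differ in abundance when NOX1 is missing, and the 6 were split between both directions. In NOX1-deficient cells miR-21a-5p, miR-155-5p and miR-221-3p read higher, while miR-222-3p, miR-31-5p and miR-146a-5p read lower. This split was like that of all 472 features, of which 237 read higher (50.2%) and 234 lower. At a size of at least 1.2-fold there were 2 higher, miR-21a-5p and miR-155-5p, and 1 lower, miR-222-3p. Each of these 3 was under 1.2-fold in one other setting, miR-21a-5p at a log2 difference of 0.21 under quantile normalization, and miR-155-5p at 0.24 and miR-222-3p at -0.25 with 16 units added to both arrays. With the deposited values, 19.1% of all 472 features passed 1.2-fold upward and 23.1% downward. None of the 6 reached 1.5-fold in either direction, a size reached upward by 4.03% of all features and downward by 7.2%. Written as NOX1-deficient minus wild-type, the log2 difference had a median of -0.01 over the 6 and 0.004 over all 472 features.

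**Figure D1:**
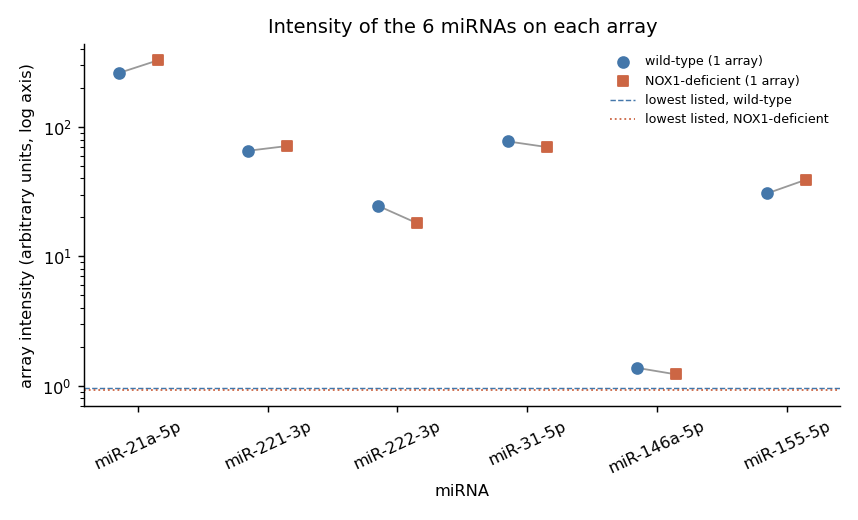
Array intensity in arbitrary units (log axis) of each of the 6 miRNAs, with a circle for the wild-type array and a square for the NOX1-deficient array, joined by a line. Dashed and dotted lines mark the lowest intensity listed on each array (0.96 and 0.93 units). The lines rise for miR-21a-5p, miR-221-3p and miR-155-5p and slope down for the other 3, and miR-146a-5p lies just above the lowest listed values.

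miR-21a-5p (MIMAT0000530) was measured at 261.17 units on the wild-type array and at 327.18 units on the NOX1-deficient array. Its NOX1-deficient value was 1.25-fold higher, a log2 difference of 0.33. By brightness it ranked 37 of the 546 features listed in wild-type cells and 35 of the 525 listed in NOX1-deficient cells. Brightness ranks given below use the same 2 lists. The intensity of miR-21a-5p was 0.228% of the summed intensity in wild-type and 0.292% in NOX1-deficient cells. The brightest feature alone read 51870 of the 114672 units in wild-type and 51059 of the 112103 units in NOX1-deficient cells. Because each intensity also depends on its probe, these shares are no measure of abundance. Among the 118 brightest features (the top quartile by mean log2 intensity, from 19.9 units up) the difference of miR-21a-5p was the 8th highest. At a size of 1.2-fold this quartile held 11 features upward (9.32%) and 8 downward (6.78%). None of its features reached 1.5-fold in either direction (0%).

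miR-155-5p (MIMAT0000165), which is cut from the transcript of Mir155hg, was at 30.66 units on the wild-type array and 39.15 units on the other. It was 1.28-fold higher in NOX1-deficient cells (log2 difference 0.35), the largest upward value of the 6. It moved from rank 100 to rank 92 by brightness. Its difference was the 6th highest of the 118 brightest features. The log2 differences of miR-21a-5p and miR-155-5p were 0.03 apart. Both are among the 11 of the 118 brightest features (9.32%) at least 1.2-fold higher, and whether they are linked was not tested.

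**Figure D2:**
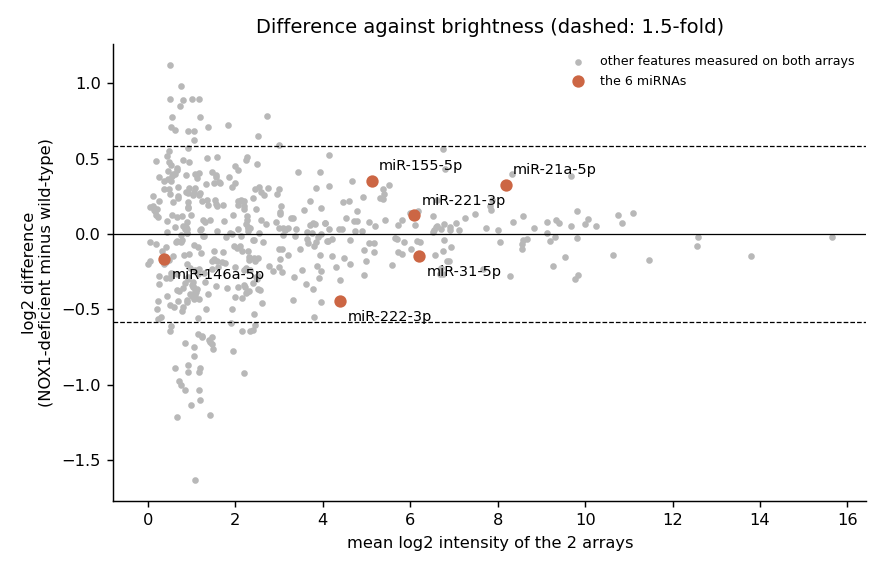
Log2 difference (NOX1-deficient minus wild-type) against the mean log2 intensity of the 2 arrays for the 472 features measured on both. The 6 miRNAs are the larger, named points, the others are grey, and dashed lines mark 1.5-fold. All 6 lie between the dashed lines, with miR-222-3p lowest at -0.45 and miR-155-5p highest at 0.35.

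miR-221-3p (MIMAT0000669) was at 65.53 units in wild-type cells and 71.31 units without NOX1. Its neighbour miR-222-3p (MIMAT0000670) was at 24.58 and 18.05 units. The first was 1.09-fold higher in NOX1-deficient cells (log2 difference 0.12) and the second 1.36-fold lower (log2 difference -0.45). miR-221-3p moved from rank 75 to rank 71 by brightness, and miR-222-3p from rank 109 to rank 121. The 2 miRNAs are processed from neighbouring hairpins that are generally held to be transcribed together. Their log2 differences were 0.57 apart. Among the 50 features of like brightness the SD of the difference was 0.18 around miR-221-3p and 0.22 around miR-222-3p. Of the 50 around miR-221-3p, 22 had a difference of larger size, so its direction is uncertain. Whether the pair truly diverges was not tested. Put as a ratio, the intensity of miR-221-3p over that of miR-222-3p was 2.67 in wild-type and 3.95 in NOX1-deficient cells, a 1.48-fold change. Such a ratio holds the affinities of 2 probes and gives no relative abundance, but its change does not depend on how the arrays are scaled to each other by a constant factor. Of the 118 brightest features, miR-222-3p had the lowest difference and miR-221-3p the 28th highest. At 21.1 units in mean intensity, miR-222-3p lies near the 19.9-unit lower edge of the top quartile, so this rank depends on the cutoff. Of the 50 features nearest to it in mean intensity, some of them below that edge, 2 had a lower difference.

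miR-31-5p (MIMAT0000538) was at 77.40 units in wild-type cells and 70.00 units without NOX1. It was 1.11-fold lower in NOX1-deficient cells (log2 difference -0.14) and moved from rank 69 to rank 74 by brightness. In the top quartile its difference was the 22nd lowest. Of the 50 features nearest to it in mean intensity, 17 had a difference of larger size, so its direction is uncertain.

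miR-146a-5p (MIMAT0000158) had a low signal, 1.37 units in wild-type cells and 1.22 units without NOX1. These values are 1.43 times and 1.31 times the lowest intensity listed on the same array. By brightness it ranked 451 of the 546 features listed in wild-type cells and 468 of the 525 listed in NOX1-deficient cells. Its log2 difference of -0.17 (1.12-fold lower) was of a size that 38 of the 50 features nearest to it in mean intensity exceeded. How far such a signal lies above background was not determined, and its direction is uncertain. The other 5 all belonged to the brightest quartile. Their median log2 difference was 0.12, the value of miR-221-3p, beside 0.028 for that quartile as a whole (SD 0.178 across features). With miR-146a-5p included the median was -0.01, and of the 5 miR-222-3p and miR-31-5p read lower.

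Since dim features vary more between the arrays than bright ones, each miRNA was set beside the 50 features nearest to it in mean log2 intensity. The SD of the log2 difference among those features was 0.18 around miR-21a-5p, miR-221-3p and miR-31-5p, 0.20 around miR-155-5p, 0.22 around miR-222-3p and 0.42 around miR-146a-5p. These SDs are across features and stand in for no replicate error. The likeness in brightness was loose for miR-21a-5p, whose 50 features ran from 94.8 to 901 units in mean intensity. The sets overlap, and some hold others of the 6, so the comparisons are not independent. For instance, miR-31-5p and miR-155-5p are among the 50 of miR-221-3p. Beside miR-21a-5p, 4 of the 50 had a higher difference, and beside miR-155-5p 2 of the 50 did. Beside miR-222-3p, 2 of the 50 had a lower one. Beside miR-221-3p, 12 of the 50 had a higher difference, and beside miR-31-5p 6 of the 50 had a lower one. Each of the 6 miRNAs lay within the range of its 50 features.

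**Figure D3:**
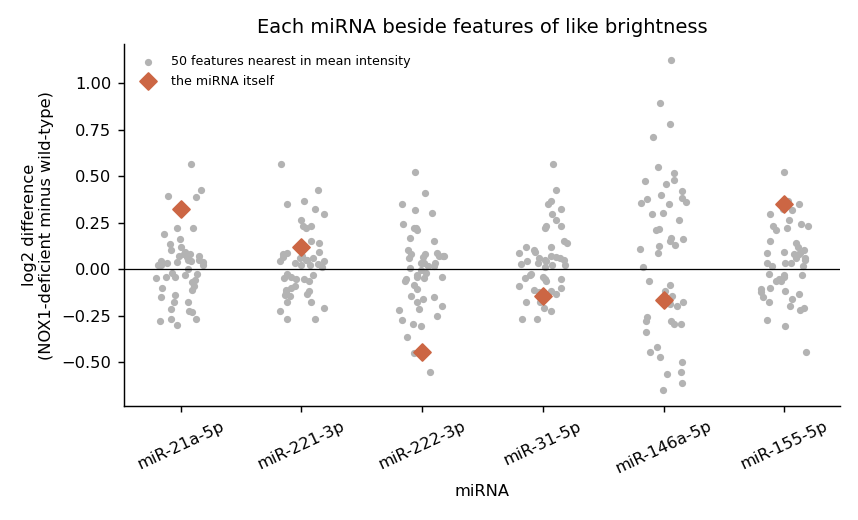
Log2 difference (NOX1-deficient minus wild-type) of each miRNA (diamond) and of the 50 features nearest to it in mean log2 intensity (grey points, spread sideways for visibility). The diamonds of miR-21a-5p and miR-155-5p lie near the top of their grey points, that of miR-222-3p near the bottom, and the grey points are most spread around miR-146a-5p.

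The features with the most similar pair of values were found by distance in log2 intensity over the 2 arrays, with 2 listed for each miRNA. None of the 12 listed was another of the 6. Such a match was unlikely in advance, since the 6 are few among 472 features and span a 226-fold range of mean intensity. Nearest to miR-155-5p was MIMAT0000248, with 30.82 units in wild-type cells and 39.70 units without NOX1. Nearest to miR-21a-5p was MIMAT0000525, with 279.19 and 367.05 units. Nearest to miR-222-3p was MIMAT0000144, with 23.30 and 18.83 units. Nearest to miR-146a-5p was MIMAT0003377, with 1.39 and 1.21 units. The distance to the nearest feature ran from 0.021 to 0.192 on the log2 scale. With 2 arrays, this measure weighs brightness as well as the difference.

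The sizes of the 6 differences varied over the 7 other scalings and offsets tried. None of the 6 changed sign, but adding 1 or 16 units to both arrays cannot turn a sign, and centring on the differences moves each value by only 0.004. The other 4 settings were median centring, quantile normalization, the loess curve and subtraction of the lowest listed intensity. miR-21a-5p ranged from 0.21 to 0.42 on the log2 scale, miR-155-5p from 0.24 to 0.45 and miR-221-3p from 0.10 to 0.22. miR-222-3p ranged from -0.46 to -0.25 and miR-31-5p from -0.17 to -0.05. miR-146a-5p ran from -0.50, when the lowest listed intensity was subtracted from each array, to -0.01, when 16 units were added. The gap between miR-221-3p and miR-222-3p ran from 0.35 to 0.59.

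**Figure D4:**
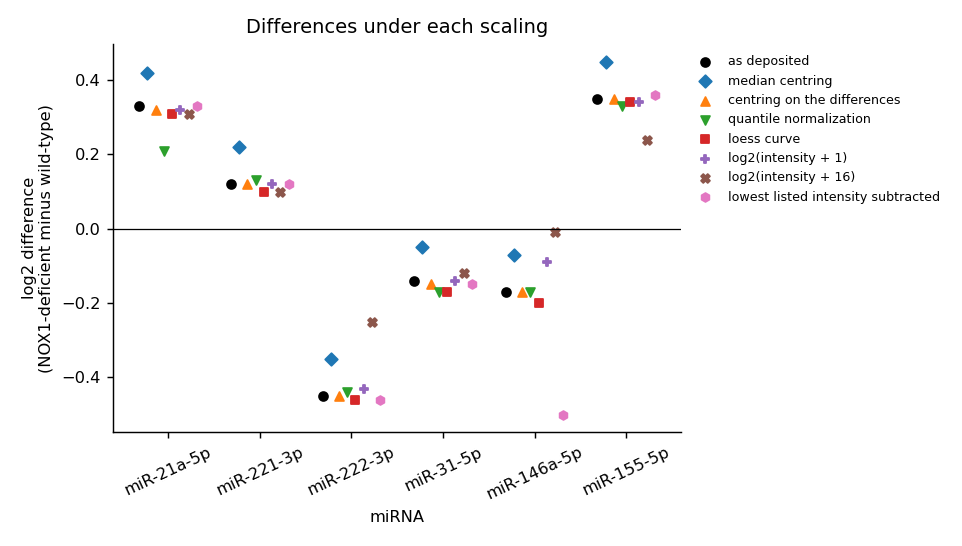
Log2 difference (NOX1-deficient minus wild-type) of each miRNA with the deposited values (black circles) and under 7 other scalings or offsets (other symbols). No miRNA crosses 0, and miR-146a-5p has the widest range, from -0.50 to -0.01.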

How the data were processed

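Per the labels' protocols, Hy5 dye was attached to total RNA with a miRCURY kit after miRNeasy extraction. The authors deposited 1 intensity per feature and array. Neither the scanner nor any background correction, normalization or detection limit is given in the sources used here. That the intensity is linear was read from the deposited values, which lie above 0 and reach 51870 units. The table lists 193 values as null in wild-type and 214 in NOX1-deficient cells, and none among the 6 miRNAs. Depth does not apply to arrays, and their number limits the precision.

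The accession of each of the 6 was paired with its name by the rule that chose it. The members and lists were chosen with earlier results of these data known. Log2 ratios (NOX1-deficient over wild-type) were taken without a pseudocount for the 472 features measured on both arrays. With 1 array per genotype no test was made, and folds of 1.2 and 1.5 are sizes, not calls of change. The rule for named features took the 6, their opposite arms and seed relatives, lists of contractile, growth-associated and cell type marker miRNAs, and the 2 features nearest to each. The lists are by name and were not evaluated, since the RefSeq tables hold no such accessions; nearest features are printed for 4 miRNAs. The counting was tested on simulated data with 200 features changed, counted at 1.5-fold. The planted changes were far larger than the differences of the 6 miRNAs, and the noise was smaller than the spread across features. That test therefore checks the code and says nothing about counts at 1.2-fold.

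Alternatives were median centring, centring on the differences, quantile normalization, a loess curve (span 0.4), 1 or 16 units added, and, chosen after seeing the data, subtraction of each array's lowest listed intensity. Sequences and positions are from RefSeq (GRCm38.p6). Work was done in Python 3.11.15 with pandas 2.3.3 and numpy 2.4.6, the loess curve with statsmodels 0.14.6, ranks with scipy 1.17.1, plots with matplotlib 3.10.9.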

Additional observations from a re-analysis of the deposited data

How the results depend on the processing

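Under the 7 alternatives each of the 6 log2 differences moved by less than the SD among the 50 features of like brightness. That SD is larger than the difference itself for miR-221-3p (0.18 against 0.12), miR-31-5p (0.18 against -0.14) and miR-146a-5p (0.42 against -0.17). For these miRNAs a loss of the whole difference would also have stayed within it, so the measure cannot show that they are stable. No sign turned, which adding 1 or 16 units could not do by construction and centring on the differences, a shift of 0.004, could not do for values of this size. The 2 miRNAs at least 1.2-fold higher became 1 under quantile normalization, which took miR-21a-5p to 0.21 on the log2 scale, and 1 with 16 units added, which shrinks ratios of dim features. The 1 at least 1.2-fold lower became 0 with 16 units added and 2 when the lowest listed intensity was subtracted (chosen after seeing the data), which took miR-146a-5p from -0.17 to -0.50. The median over the 6 ran from -0.04 to 0.09. Median centring added 0.10 to each difference, the gap between the array medians of the 472 features. Among the 236 brighter features 11.9% were at least 1.2-fold higher and 14% lower, against 19.1% and 23.1% without that filter. Counting only features with exactly 1 accession left all 6. No paired analysis was possible because there is a single array on each side, and no replicate could be left out. Signal over background was not measured here, which limits what can be said of miR-146a-5p in particular.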
